A study of Mus musculus with 6 samples.

Results

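The genes described here make, break down and read out the cyclic nucleotides cAMP and cGMP. They were chosen by symbol alone: every row of the value table whose gene symbol begins with Adcy and a digit, Gucy, Pde and a digit, Prkac, Prkar, Prkg1, Prkg2 or Akap. That gave 60 genes, with 1 probe set each, of 16464 genes with a symbol. They fall into 8 membrane adenylyl cyclases and 1 soluble one, 2 subunits of soluble guanylyl cyclase and 3 membrane guanylyl cyclases, 20 phosphodiesterases, 2 catalytic and 4 regulatory subunits of protein kinase A, 2 cGMP-dependent kinases and 15 A-kinase anchoring proteins. A further 3 matched the symbol rule without being enzymes of cyclic nucleotide breakdown (Pde12, Pde4dip and Pde6d).

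RNA came from the dissected habenula of adult mice, 6 to 12 weeks old, of the Chat DW167 line, and was hybridised to 6 Affymetrix arrays. In this bacterial artificial chromosome line, ribosomes of cells that use the choline acetyltransferase driver carry a tag and can be affinity purified with their messenger RNA (TRAP, translating ribosome affinity purification). The 3 IP arrays hold the purified RNA, labelled as coming from cholinergic medial habenula neurons. The 3 UB arrays hold the polysomal RNA that stayed unbound in those 3 preparations and represent the dissected tissue. Both fractions therefore come from the same transgenic mice, and no wild-type or untagged preparation was analysed here.

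Cyclic AMP is made from ATP by adenylyl cyclases, which stimulatory G proteins switch on and inhibitory ones switch off. Guanylyl cyclases make cGMP, the soluble heterodimer in answer to nitric oxide and some of the membrane forms in answer to peptides. Phosphodiesterases end both signals, some acting on 1 nucleotide and some on both. Cyclic AMP frees the catalytic subunits of protein kinase A from its regulatory subunits, A-kinase anchoring proteins hold that kinase at particular sites in the cell, and cGMP acts through its own kinases. In neurons both nucleotides also bind to HCN pacemaker channels directly.

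Levels are log2 values as deposited. Differences are IP minus UB on the log2 scale after the small offset between the fractions, measured on biotinylated hybridisation controls, had been removed. Testing required a linear level of at least 50 on 3 or more of the 6 arrays, and a probe set is said to be higher or lower in IP where limma gave an adjusted p under 0.05. Such a level was reached by 7533 to 7579 probe sets on the IP arrays and by 8618 to 8659 on the UB arrays. Of the 60 genes, 33 passed and 27 did not. The purification was described with 8 medial habenula markers, among them the acetylcholine transporter gene Slc18a3 and the choline transporter gene Slc5a7. All 8 were higher in IP, with a summed linear level of 52564 to 74414 on the IP arrays against 7712 to 12761 on the UB arrays. That list was chosen with earlier results of these data known, so it is no independent check. The number of arrays, 3 per fraction, limits the precision of every value below.

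In RNA bound to the tagged ribosomes, the cyclic nucleotide genes went both ways. Both subunits of soluble guanylyl cyclase, the phosphodiesterases Pde1a and Pde2a and the type II regulatory subunit of protein kinase A Prkar2a were 3.07-fold to 5.70-fold higher than in the unbound RNA. The cGMP kinase Prkg2 and the adenylyl cyclase Adcy1 were lower by at least 11.2-fold and 11.5-fold, and Pde1b was 17.3-fold lower. The catalytic subunits of protein kinase A were not called in either direction. Of the 33 tested genes, 9 (27.3%) were higher and 20 (60.6%) lower in IP, where 30.9% and 43.5% of all 8960 tested probe sets were. By fitted differences of 2-fold or more, 6 (18.2%) were higher and 17 (51.5%) lower, against 14.3% and 28% of all tested probe sets. Both counts of lower ones use the fitted value also where IP was under 50. The 17 include Pde5a, which was shown only to be at least 1.57-fold lower. The median difference of the tested genes was -1.12 (-0.83 with genes under 50 in IP at their bounds), and that of all tested probe sets was -0.17.

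Of the 33 tested genes, 7 were under 50 on all 3 IP arrays, as were 15.3% of all tested probe sets. These 7, all among the 20 lower genes, entered the test through the UB arrays alone. No gene entered through the IP arrays alone. For those 7 the fold is a lower bound, with 50 in place of the IP level. An adjusted p printed beside such a bound belongs to the fitted difference, not to the bound. Because these genes passed the filter only through the fraction where they were high, it is no separate support. The other 26 had signal in both fractions, with 9 higher, 13 lower and 4 not called. The arrays of the fractions did not overlap for 29 of the 33, and for 80% of all tested probe sets (the fractions had been normalized apart). For 14 of the 33, all 3 arrays of a fraction carried exactly the same value, as happened for 31% of all tested probe sets, so small standard errors in the text can reflect ties rather than close replication.

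**Figure D1:**
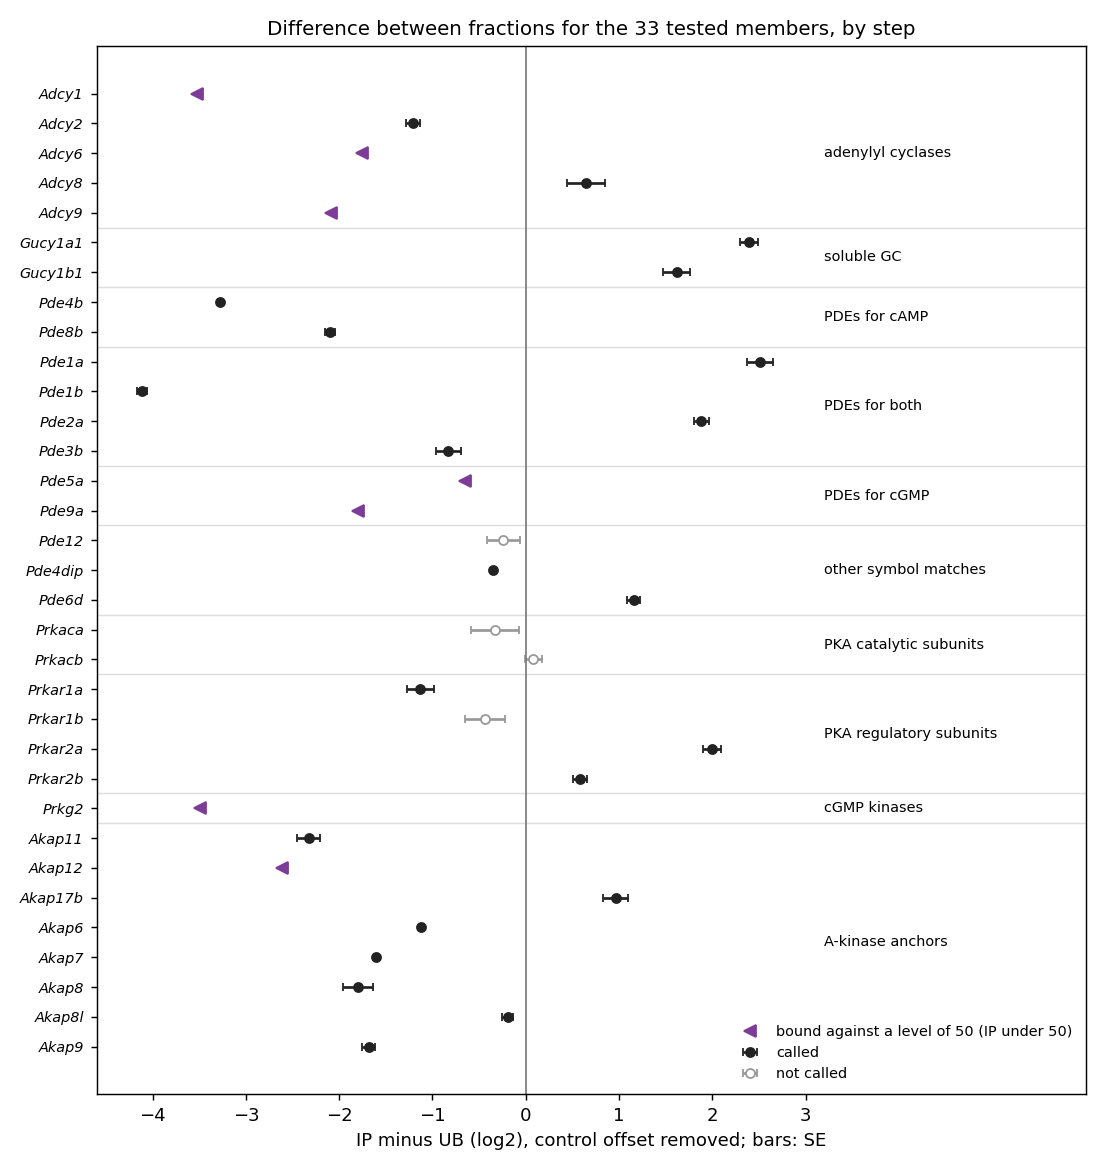
Difference between fractions (IP minus UB, log2, horizontal axis) for each of the 33 tested genes, grouped by step; circles give the difference with its SE (filled where called, open where not), and triangles give the bound for the 7 genes under 50 on all IP arrays. The largest increases are at Pde1a, 2.51, and Gucy1a1, 2.39, and both subunits of soluble guanylyl cyclase lie to the right of 0.

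Among the membrane adenylyl cyclases, 5 of 8 were tested, of which 1 was higher and 4 were lower in IP. Over all tested probe sets, 30.9% were higher and 43.5% lower. Adcy8, a cyclase stimulated by calcium and calmodulin, stood at 9.86, 9.22 and 9.77 on the IP arrays of replicates 1, 2 and 3 and at 9.05, 8.78 and 9.05 on the UB arrays. All 3 IP values lay above all 3 UB values. The difference was 0.64 ± 0.21 (SE; 1.56-fold, adjusted p = 0.0399 by limma, 95% interval 0.10 to 1.19). That call was lost when the controls were used to scale each array on its own rather than each fraction (adjusted p = 0.0557), without IP replicate 1 or 3 or any 1 UB replicate (adjusted p from 0.0527 to 0.177) and without both arrays of replicate 1 or of replicate 3 (0.239 and 0.188), range 0.000314 to 0.239 across the alternatives.

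Adcy1, which calcium and calmodulin also stimulate, went the opposite way. It stood at 2.52 on all 3 IP arrays, far under the level of 50, and at 8.58, 9.44 and 9.45 on the UB arrays. It was at least 11.5-fold lower in IP (adjusted p = 1.67e-05). Adcy6, which calcium inhibits, had 2.11 on every IP array and 7.38 on every UB array and was at least 3.37-fold lower (adjusted p = 9.62e-13, a value that rests on ties in both fractions). Adcy9, a widely expressed cyclase that forskolin hardly activates, stood at 4.22, 4.93 and 4.56 in IP and at 7.52, 7.99 and 7.65 in UB, at least 4.26-fold lower (adjusted p = 0.000176). For these 3 cyclases no IP array reached 50 and every UB array did.

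Adcy2, which G protein beta-gamma subunits stimulate together with the stimulatory alpha subunit, kept signal in both fractions, at 7.65 on each IP array and at 8.69, 8.92 and 8.93 on the UB arrays (difference -1.21 ± 0.08, 2.31-fold lower, adjusted p = 9.61e-05). Its direction depended on the scaling and was called higher by 0.34 (adjusted p = 0.00897) under a scaling that equalised the median over the whole table (whole-table median scaling). The remaining cyclase genes were not tested. Adcy3 stood at 4.23 in IP and 5.29 in UB, Adcy7 at the table minimum in IP and at 3.41 to 3.56 in UB, Adcy4 at the table minimum in IP and at 2.05 in UB, and the soluble cyclase Adcy10 at the table minimum on all 6 arrays.

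**Figure D2:**
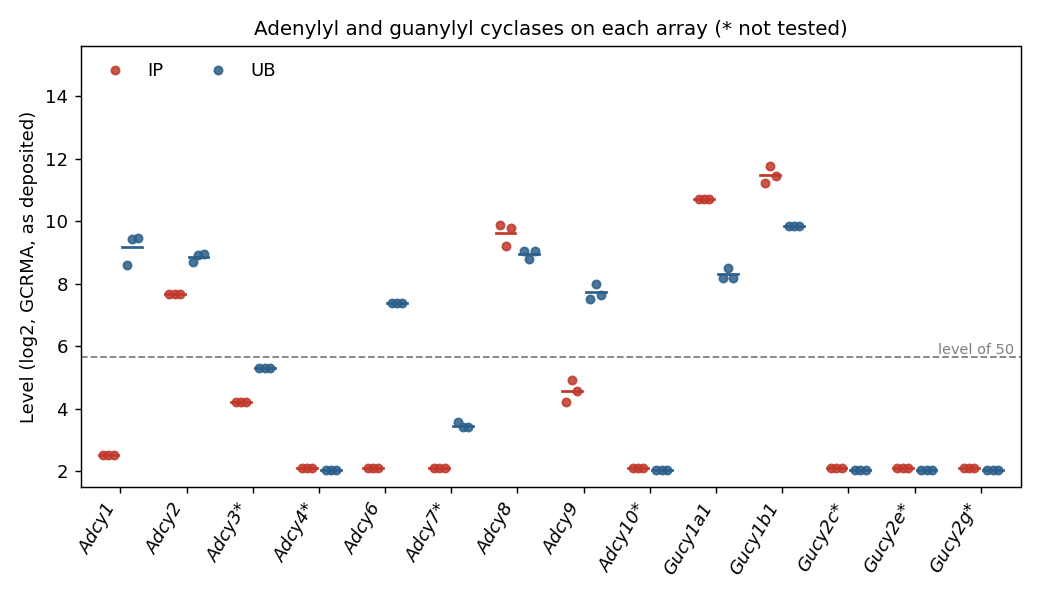
Level (log2, vertical axis) of each adenylyl and guanylyl cyclase gene on the 3 IP arrays (red) and 3 UB arrays (blue), with the mean of each fraction as a bar; the dashed line marks the linear level of 50 and asterisks mark genes that were not tested. Adcy1, Adcy6 and Adcy9 are above the line in UB only, and both soluble guanylyl cyclase subunits lie higher in IP.

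Soluble guanylyl cyclase, the nitric oxide receptor, is a dimer of an alpha and a beta subunit, and both measured subunits were higher in IP. The alpha subunit gene Gucy1a1 stood at 10.71 on all 3 IP arrays and at 8.19, 8.51 and 8.19 on the UB arrays. The difference was 2.39 ± 0.10 (5.25-fold, adjusted p = 1.96e-05), which ranked 260 among the 8960 tested probe sets ordered from the largest increase. The beta subunit gene Gucy1b1 stood at 11.21, 11.75 and 11.46 in IP and at 9.84 on all 3 UB arrays, a difference of 1.62 ± 0.15 (3.07-fold, adjusted p = 0.000404). For both genes every IP array was above every UB array, and both stayed called higher in IP under each of the 19 alternatives run for them (as tied genes, they were not in the one that leaves out tied probe sets). The membrane guanylyl cyclases Gucy2c, the guanylin receptor of the gut, Gucy2e of photoreceptors and Gucy2g were at the table minimum on all 6 arrays.

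The genes of the 2 subunits are neighbours on mouse chromosome 3, with no other gene between them in the RefSeq annotation of GRCm38.p6, and their promoter windows are shown because both transcripts were higher in IP. A window runs from 250 bases before to 50 bases after an annotated start, and the sequences are from RefSeq, 5′ to 3′ on the strand of the gene. Capitals mark the letters TGACG or their reverse complement CGTCA, the core of the cAMP response element, which is bound by the transcription factor CREB, a substrate of protein kinase A. The windows of Prkar2a, a regulatory subunit gene higher in IP, and of Prkar1a, one that was lower, are shown for comparison. The windows lie at chr3:82145601-82145900 (minus strand, the first of 2 listed for Gucy1a1), chr3:82074662-82074961 (minus strand, Gucy1b1), chr9:108691893-108692192 (plus strand, Prkar2a) and chr11:109650612-109650911 (plus strand, 1 of 6 listed for Prkar1a, chosen because it holds the full element).
Gucy1a1: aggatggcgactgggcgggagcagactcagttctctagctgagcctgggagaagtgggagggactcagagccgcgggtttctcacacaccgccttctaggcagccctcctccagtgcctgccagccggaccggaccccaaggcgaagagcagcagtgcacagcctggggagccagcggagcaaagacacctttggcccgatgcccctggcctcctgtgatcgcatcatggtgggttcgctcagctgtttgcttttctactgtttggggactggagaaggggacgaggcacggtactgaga
Gucy1b1: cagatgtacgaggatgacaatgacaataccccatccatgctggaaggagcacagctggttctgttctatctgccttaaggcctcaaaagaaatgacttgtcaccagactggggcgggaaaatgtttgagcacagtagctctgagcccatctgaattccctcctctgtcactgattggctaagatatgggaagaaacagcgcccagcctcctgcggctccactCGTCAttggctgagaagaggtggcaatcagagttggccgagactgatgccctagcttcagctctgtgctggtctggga
Prkar2a: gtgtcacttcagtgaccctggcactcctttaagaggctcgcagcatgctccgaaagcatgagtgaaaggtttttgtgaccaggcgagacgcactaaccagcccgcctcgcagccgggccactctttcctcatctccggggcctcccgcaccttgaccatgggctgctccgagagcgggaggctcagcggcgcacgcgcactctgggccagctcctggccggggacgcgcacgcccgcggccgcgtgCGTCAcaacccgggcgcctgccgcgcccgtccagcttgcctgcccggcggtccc
Prkar1a: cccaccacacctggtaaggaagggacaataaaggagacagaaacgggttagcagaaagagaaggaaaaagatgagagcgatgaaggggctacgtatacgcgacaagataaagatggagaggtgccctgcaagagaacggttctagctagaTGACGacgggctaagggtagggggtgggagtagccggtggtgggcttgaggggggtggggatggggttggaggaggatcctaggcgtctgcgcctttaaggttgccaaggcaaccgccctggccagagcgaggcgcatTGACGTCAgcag
The window of Gucy1a1 held no core site and those of Gucy1b1 and Prkar2a 1 each. That of Prkar1a held 3, a pair of which overlap in the full element TGACGTCA. Of the 60 genes, 48 had a window in the table. The full element, searched on both strands, was in 1.79% of all 32851 windows and in 2.13% of the 94 windows of these genes, all of them windows of Prkar1a. The core site was in 20.8% of all windows and in 21.3% of theirs. These matches describe letters only.

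Of the 20 phosphodiesterase genes, 8 were tested, with 2 higher and 6 lower in IP, where 30.9% and 43.5% of all tested probe sets were. Pde1a, which calcium and calmodulin activate and which breaks down both nucleotides, stood at 10.83, 10.44 and 10.62 in IP and at 8.28, 8.11 and 7.93 in UB. It was 5.70-fold higher (2.51 ± 0.14, adjusted p = 6.18e-05), which ranked 233 by increase among all tested probe sets. Pde2a, an enzyme for both nucleotides whose breakdown of cAMP cGMP stimulates, stood at 14.77, 14.86 and 14.81 in IP and at 12.76, 13.04 and 12.95 in UB. It was 3.68-fold higher (1.88 ± 0.08, adjusted p = 2.24e-05). For both, every IP array was well above every UB array, and the call was the same under all alternatives.

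Pde1b, the close relative of Pde1a that calcium and calmodulin also activate, was lower. It stood at 6.62 on all IP arrays and at 10.77, 10.60 and 10.77 in UB, a difference of -4.12 ± 0.06 (17.3-fold lower, adjusted p = 2.59e-07). Pde3b, an enzyme for both nucleotides that cGMP inhibits, was 1.78-fold lower, with values of 6.94 to 7.27 in IP and 7.80 to 8.14 in UB (-0.83 ± 0.13, adjusted p = 0.00361). The Pde3b call was lost with quantile normalization (adjusted p = 0.0871, range 0.00262 to 0.0871 across the alternatives), and under whole-table median scaling it was called higher (0.72, adjusted p = 0.00432). Members of the same enzyme family therefore lay on both sides, with Pde1a higher and Pde1b lower in each of the 3 preparations.

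Of the enzymes specific for cAMP, both that were tested were lower. Pde4b, a target of rolipram, stood at 6.97 to 7.02 in IP and 10.25 to 10.29 in UB (9.68-fold lower, adjusted p = 2.60e-08). Pde8b, an enzyme of high affinity for cAMP, stood at 5.68 on all IP arrays, just over the level of 50, and at 7.70 to 7.88 in UB (4.28-fold lower, adjusted p = 3.19e-06). The cGMP-specific enzymes Pde5a, the target of sildenafil, and Pde9a, an enzyme of high affinity for cGMP, were under 50 on all IP arrays. Pde5a was at the table minimum in IP and at 6.23 to 6.38 in UB, at least 1.57-fold lower (adjusted p = 1.25e-07). Pde9a was at 3.30 on all IP arrays and at 7.32 to 7.47 in UB, at least 3.47-fold lower (adjusted p = 1.25e-07).

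The other 12 phosphodiesterase genes were not tested. Pde4a, for cAMP, stood at 3.37 to 3.54 in IP and at 4.48, 5.18 and 6.29 in UB, with 1 array of 6 over 50. Pde7a and Pde10a, the latter known for its expression in the striatum, had 2.24 and 2.11 on each IP array and 5.18 and 5.23 on each UB array. Pde7b was at 2.51 to 2.75 in UB and at the table minimum in IP. Pde1c, Pde3a, Pde8a and the rod enzyme gene Pde6a were at the table minimum on all 6 arrays, and the other photoreceptor enzyme genes Pde6b, Pde6c, Pde6g and Pde6h were at 2.76 or less on every array.

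**Figure D3:**
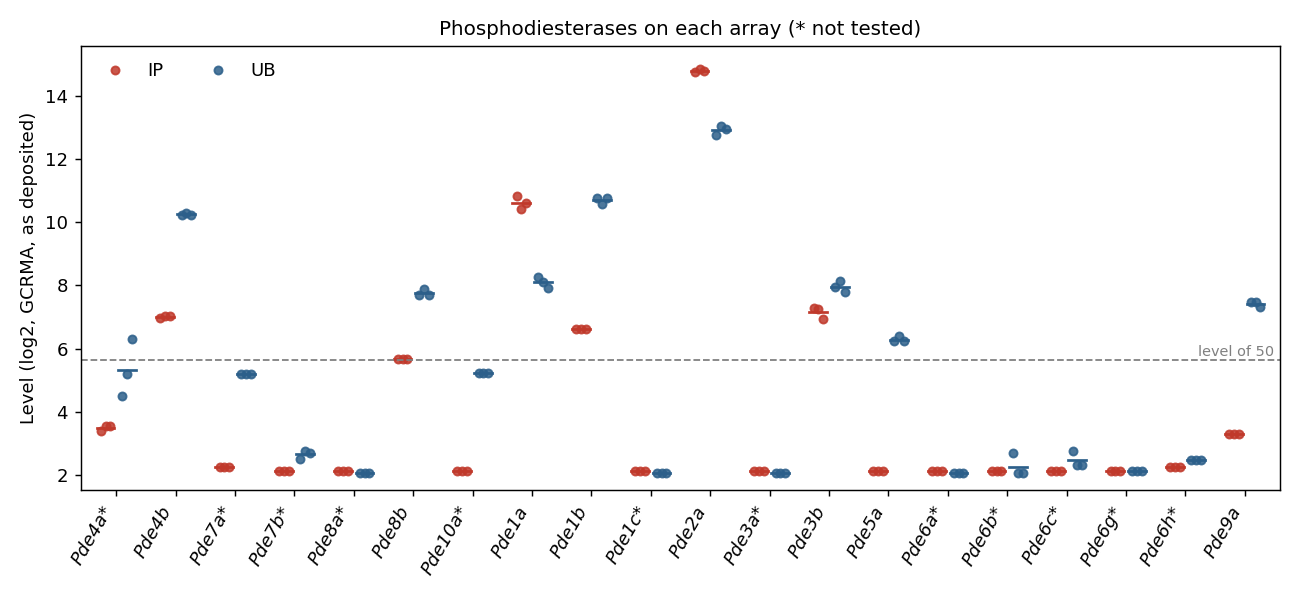
Level (log2, vertical axis) of each of the 20 phosphodiesterase genes on the 3 IP arrays (red) and 3 UB arrays (blue), with the mean of each fraction as a bar; the dashed line marks the linear level of 50 and asterisks mark genes that were not tested. Pde1a and Pde2a lie higher in IP, at 10.44 to 10.83 and 14.77 to 14.86, and the other 6 tested genes lie lower.

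All 6 subunit genes of protein kinase A had signal on every array, and both type II regulatory subunits were higher in IP. Prkar2a, the type II subunit RII-alpha that anchoring proteins bind, stood at 8.52, 8.82 and 8.73 in IP and at 6.63, 6.78 and 6.63 in UB. It was 3.99-fold higher (2.00 ± 0.10, adjusted p = 3.41e-05), with every IP array above every UB array. Prkar2b, the type II subunit RII-beta found mainly in brain and fat, stood at 9.97, 9.97 and 10.21 in IP and at 9.45, 9.48 and 9.43 in UB. It was 1.49-fold higher (0.58 ± 0.08, adjusted p = 0.00178), a call lost when the controls scaled each array (adjusted p = 0.0868, range 8.08e-06 to 0.0868 across the alternatives).

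Of the type I subunits, which are mostly cytosolic, 1 was lower and 1 was not called. Prkar1a stood at 11.24, 10.92 and 10.92 in IP and at 12.36, 11.98 and 12.08 in UB, and it was 2.19-fold lower (-1.13 ± 0.14, adjusted p = 0.00155). Under whole-table median scaling it was called higher (0.42, adjusted p = 0.0402). Prkar1b, the type I subunit of the nervous system, stood at 12.50, 12.97 and 13.19 in IP and at 13.10, 13.38 and 13.45 in UB. The fractions overlapped and the gene was not called (-0.44 ± 0.21, 95% interval -0.999 to 0.12, adjusted p = 0.120). With a replicate block, which pairs the fractions of a preparation, it was called lower (adjusted p = 0.0265), as it was with quantile normalization (0.00692), without IP replicate 3 (0.0447) and without both arrays of replicate 1 (0.0430), range 0.00513 to 0.649 across the alternatives, at the lower end of which, under whole-table median scaling, it was higher in IP.

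The catalytic subunit genes did not pass the test. Prkaca stood at 12.36, 13.26 and 13.02 in IP and at 13.05, 13.31 and 13.21 in UB, with a difference of -0.33 ± 0.26 (95% interval -1.01 to 0.36, adjusted p = 0.302). Prkacb stood at 11.30, 11.30 and 11.58 in IP and at 11.24, 11.32 and 11.32 in UB, with a difference of 0.08 ± 0.09 (95% interval -0.16 to 0.32, adjusted p = 0.447). The fractions overlapped for both. Prkaca was called lower with quantile normalization (-0.59, adjusted p = 0.0362) and higher under whole-table median scaling (1.22, adjusted p = 0.00766). Prkacb was called higher under median scaling over tested probe sets (0.41, adjusted p = 0.0116) and under whole-table median scaling (1.63, adjusted p = 4.18e-05). Without IP replicate 3, without UB replicate 1 and without both arrays of replicate 1 the value of Prkacb was -0.12, -0.11 and -0.0045.

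Of the cGMP-dependent kinases, Prkg2, the membrane-anchored form, was tested. It stood at 4.36 on all IP arrays and at 9.27, 9.04 and 9.04 on the UB arrays, and was at least 11.2-fold lower in IP (adjusted p = 3.74e-07). Prkg1, the soluble form of smooth muscle and some neurons, was not tested, with 2.10, 2.61 and 2.10 in IP and 5.50, 5.47 and 4.55 in UB. Neither kinase gene reached 50 on an IP array, in the same RNA in which both subunits of soluble guanylyl cyclase were 3.07-fold and 5.25-fold higher. Below 50 a level cannot be told from background, so this gives no amount for the kinases in the purified RNA.

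Of the 15 A-kinase anchoring protein genes, 8 were tested, and 1 was higher and 7 were lower in IP. Beside these, 30.9% of all tested probe sets were higher and 43.5% lower. Akap17b stood at 8.87, 8.77 and 8.52 in IP and at 7.54, 7.84 and 7.83 in UB, 1.95-fold higher (0.96 ± 0.13, adjusted p = 0.00217). Akap12, the scaffold gravin, stood at 2.42 to 2.54 in IP and 8.17 to 8.31 in UB and was at least 6.10-fold lower (adjusted p = 5.22e-08). Akap11, an anchor that also binds the kinase GSK3, stood at 9.29, 9.56 and 9.53 in IP and at 11.58, 11.79 and 11.93 in UB, 5.01-fold lower (adjusted p = 5.18e-05). The fractions did not overlap for any of these 3, as for 80% of all tested probe sets.

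Akap8, an anchor of the nucleus, was 3.49-fold lower (adjusted p = 0.000383), Akap9, which holds kinase at the centrosome and Golgi, 3.21-fold (adjusted p = 1.80e-05) and Akap7 3.05-fold (adjusted p = 9.90e-08). Akap6, an anchor of the nuclear envelope, had 5.90 on all IP arrays and 7.01 on the UB arrays, 2.18-fold lower (adjusted p = 1.59e-08). Under whole-table median scaling, the calls of Akap8 and Akap9 were lost (adjusted p = 0.189 and 0.119) and Akap6 was called higher by 0.43 (adjusted p = 5.76e-07). Akap8l, the nuclear relative of Akap8, had a difference of only -0.20 ± 0.06 (adjusted p = 0.0271), with 6.37, 6.55 and 6.55 in IP and 6.67 on all UB arrays. Its call was lost in the fit with a replicate block (adjusted p = 0.0518), when the controls scaled each array (0.583), without IP replicate 2 (0.0692), UB replicate 2 (0.101) or UB replicate 3 (0.550) and without both arrays of replicate 2 or 3 (0.206 and 0.147), range 1.29e-05 to 0.583 across the alternatives, and its direction turned under 3 of the scalings. It was called higher under 2 of these, quantile normalization (0.66, adjusted p = 7.76e-05) and whole-table median scaling (1.35, adjusted p = 1.29e-05).

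The remaining 7 anchors were under 50 on all 6 arrays. Akap1, the mitochondrial anchor, stood at 2.63 to 2.71 in IP and 4.18 in UB, and Akap14 at the table minimum in IP and 3.93 in UB. Akap5, a postsynaptic anchor of the kinase and of calcineurin, had 2.34 in IP and 3.06 in UB. Akap3, Akap10 and Akap13 were at 3.31 or less on every array, and Akap4, known from the sperm tail, was at the table minimum on all 6.

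**Figure D4:**
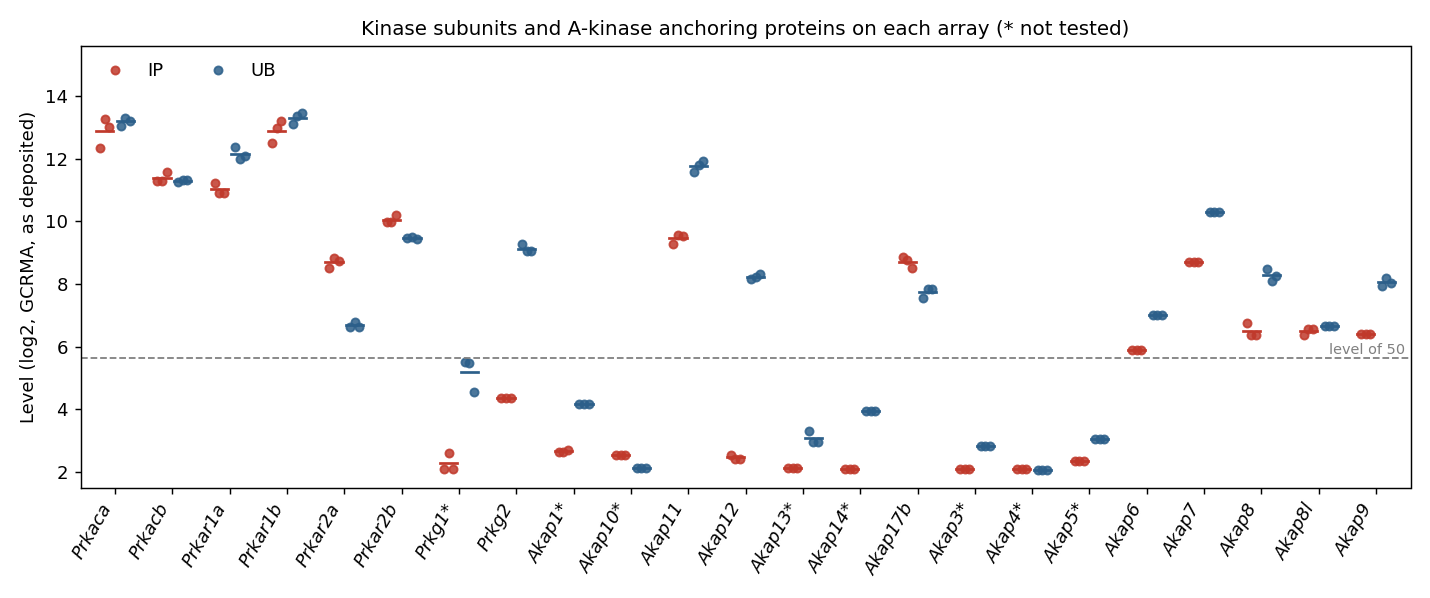
Level (log2, vertical axis) of the 6 subunit genes of protein kinase A, the 2 cGMP kinase genes and the 15 anchoring protein genes on the 3 IP arrays (red) and 3 UB arrays (blue), with the mean of each fraction as a bar; the dashed line marks the linear level of 50 and asterisks mark genes that were not tested. Prkar2a, Prkar2b and Akap17b lie higher in IP without overlap, and Prkg2 and Akap12 fall from above the line in UB to below it in IP.

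The genes that match the symbol rule without being such enzymes also differed. Pde6d, a chaperone that carries prenylated proteins, stood at 11.69, 11.72 and 11.92 in IP and at 10.56, 10.63 and 10.62 in UB, 2.23-fold higher (adjusted p = 9.11e-05). Pde4dip, the Golgi and centrosome protein myomegalin, had 7.19 throughout IP and 7.53 throughout UB, a difference of -0.35 that was called lower (adjusted p = 6.36e-06). Its call was lost when the controls scaled each array (adjusted p = 0.307) and under median scaling over tested probe sets (0.0742). It was called higher under quantile normalization (0.25, adjusted p = 0.00822) and under whole-table median scaling (1.20, adjusted p = 4.90e-08), so its direction depended on the scaling. Pde12, a mitochondrial enzyme that trims RNA tails, was not called (-0.24 ± 0.18, 95% interval -0.71 to 0.23, adjusted p = 0.274), with IP replicate 1 at 7.65 against 7.08 in the other IP arrays. Without IP replicate 1 it was called lower (-0.37, adjusted p = 0.000376), and without both arrays of replicate 1 as well (-0.53, adjusted p = 0.00148). Its direction turned under 3 scalings, and under whole-table median scaling it was called higher (1.31, adjusted p = 0.00133).

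A shift of whole arrays does not alter how much 2 genes differ in their change, so 6 pairs, chosen after their values were seen and with signal in both fractions, are described by the difference of the genes' levels on each array. Since each pair sets a gene seen to be higher beside one seen to be lower or not called, the directions were fixed by the choice and no test was made. Prkar2a changed by 3.13 more than Prkar1a on the log2 scale between UB and IP (3.01, 3.10 and 3.27 in preparations 1, 2 and 3). Prkar2b changed by 1.02 more than Prkar1b (1.12, 0.90 and 1.04). These unequal changes of the type II and type I subunits amount to 8.74-fold for the alpha and 2.03-fold for the beta genes. Pde1a changed by 6.63 more than Pde1b (6.71, 6.32 and 6.86), and Pde2a by 5.15 more than Pde4b (5.29, 5.08 and 5.09). Adcy8 changed by 1.85 more than Adcy2 (1.85, 1.71 and 2.00), and Akap17b by 3.29 more than Akap11 (3.62, 3.15 and 3.09).

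Other genes of the pathway were taken from a list of 46 regulators and targets outside these families, of which 39 had a probe set and 20 were tested. Of those 20, 6 were higher, 10 lower and 4 not called, where 30.9% of all tested probe sets were higher and 43.5% lower. Their median difference was -0.36, and that of all tested probe sets was -0.17. In the fit with a replicate block 12 were lower, as Gnas, the alpha subunit of the G protein that stimulates adenylyl cyclase, and Gnai2, of one that inhibits it, were then called (-0.21 and -0.32, adjusted p = 0.0158 and 0.0149, against 0.129 and 0.315 without the block). Both were called higher under whole-table median scaling (1.34 and 1.23, adjusted p = 0.000146 and 0.00745). Gnas was also called lower without UB replicate 1 (adjusted p = 0.0145) and without both arrays of replicate 1 (0.0159), and higher under quantile normalization (0.58, adjusted p = 0.00174). The largest increase was that of Nppa, the precursor of atrial natriuretic peptide, which acts through a membrane guanylyl cyclase (13.6-fold, 11.60, 11.80 and 11.94 in IP and 7.87, 8.36 and 7.77 in UB, limma adjusted p = 4.50e-05). Ppp1r1b, a substrate of protein kinase A that then inhibits a protein phosphatase, was 8.93-fold higher (adjusted p = 0.000659), and the kinase inhibitor gene Pkib 3.81-fold higher (adjusted p = 3.69e-08). Gnai1, the alpha subunit of a G protein that inhibits adenylyl cyclase, was 14.9-fold lower (adjusted p = 3.31e-09). Crtc1, a coactivator of CREB, was at least 1.31-fold lower (adjusted p = 1.05e-12). Its place among the 3 largest decreases rests on a fitted value with IP under 50, and the bound is smaller than that of the cyclic nucleotide transporter gene Abcc5 (at least 2.90-fold lower, adjusted p = 3.83e-09, a call lost under whole-table median scaling, adjusted p = 0.860). Pkib, Gnai1, Crtc1 and Abcc5 each held a single value throughout IP and another throughout UB, so their small adjusted p rest on ties. Rapgef3, the cAMP-activated exchange factor Epac1, was 6.32-fold lower (6.16, 5.43 and 5.77 in IP and 8.86, 8.27 and 8.15 in UB, adjusted p = 0.000770). Its IP values lay near the linear level of 50, with IP replicate 2 under it, so that fold is uncertain. Of the HCN channel genes, Hcn3 was higher and Hcn2 lower (0.88 and -1.22). The Hcn2 call was lost in 9 of 20 alternatives, and its value was 0.33 in another, under whole-table median scaling. Rapgef4 and Hcn4 were not analysed here.

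Markers of other cells moved with the lower genes. Of 39 markers of thalamus, lateral habenula, GABAergic neurons, astrocytes, oligodendrocytes, microglia, vessels, and ependyma and choroid plexus, 38 had a probe set and 29 were tested, of which 28 were lower in IP, 0 higher and 1 not called. The one not called, microglial C1qa, lay on the other side, at 7.58, 7.83 and 7.90 in IP and 6.00, 7.49 and 7.14 in UB (difference 0.88, limma adjusted p = 0.120). All 3 IP arrays were under 50 for 30 of the 38, and Gfap, Slc1a3, C1qb, Csf1r, Flt1, Pecam1 and Kl were at the table minimum there. For 7 of the 38, Flt1, Pecam1 and Kl among them, all 3 UB arrays were under 50 too, so they show no loss from IP. Flt1 and Pecam1 were at the table minimum on all 6 arrays. The summed linear level of the 6 astrocyte markers was 115 to 124 on the IP arrays and 7103 to 8496 on the UB arrays, that of the 5 oligodendrocyte markers 209 to 275 and 15574 to 17187, and that of the 6 thalamic markers 222 to 256 and 8898 to 10218. For lateral habenula, GABAergic, microglial and vascular markers it was 163 to 250, 34.6 (on each array), 210 to 256 and 22.3 (on each array) in IP against 12544 to 13996, 1843 to 2307, 600 to 790 and 237 to 597 in UB. That of the ependymal and choroid plexus markers was 827 to 2703 in IP and 10583 to 32718 in UB. Their part in the lower values of the cyclic nucleotide genes was not tested. In such bulk RNA, fewer cells of a type and less RNA per cell cannot be told apart.

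Markers of hippocampal and cortical excitatory neurons moved with the higher genes. Of 5 such markers, Neurod2, Neurod6, Nrgn and Slc17a7 were higher in IP and Camk2a was lower, at the table minimum on all IP arrays. Their summed linear level was 4192 to 10403 on the IP arrays and 490 to 2096 on the UB arrays, so it did not overlap. Their part in the higher values of Pde1a, Pde2a, Adcy8, Prkar2a and the guanylyl cyclase subunits was not tested.

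The number of genes called in each direction moved with the scaling between the fractions. All 9 genes that were higher kept a value above 0 under each of the 5 scalings plotted, from 0.58 to 4.06. Not all of them stayed called, since 7 were called higher when the controls scaled each array. Adcy8 and Prkar2b lost their calls there (limma adjusted p = 0.0557 and 0.0868). Under whole-table median scaling, which moved every difference by 1.55, 19 of the 33 were called higher and 12 lower. Relative to that shift the tested genes had a median of 0.43. Only 7533 to 7579 of the 17306 probe sets other than controls reached 50 on the IP arrays. The median that this scaling equalised therefore lay under 50 in IP, where levels cannot be told from background. Of the 20 lower genes, 14 stayed below 0 under all 5 scalings, among them Adcy1, Adcy6, Adcy9, Prkg2, Pde1b, Pde4b, Pde8b, Pde5a, Pde9a, Akap11 and Akap12.

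**Figure D5:**
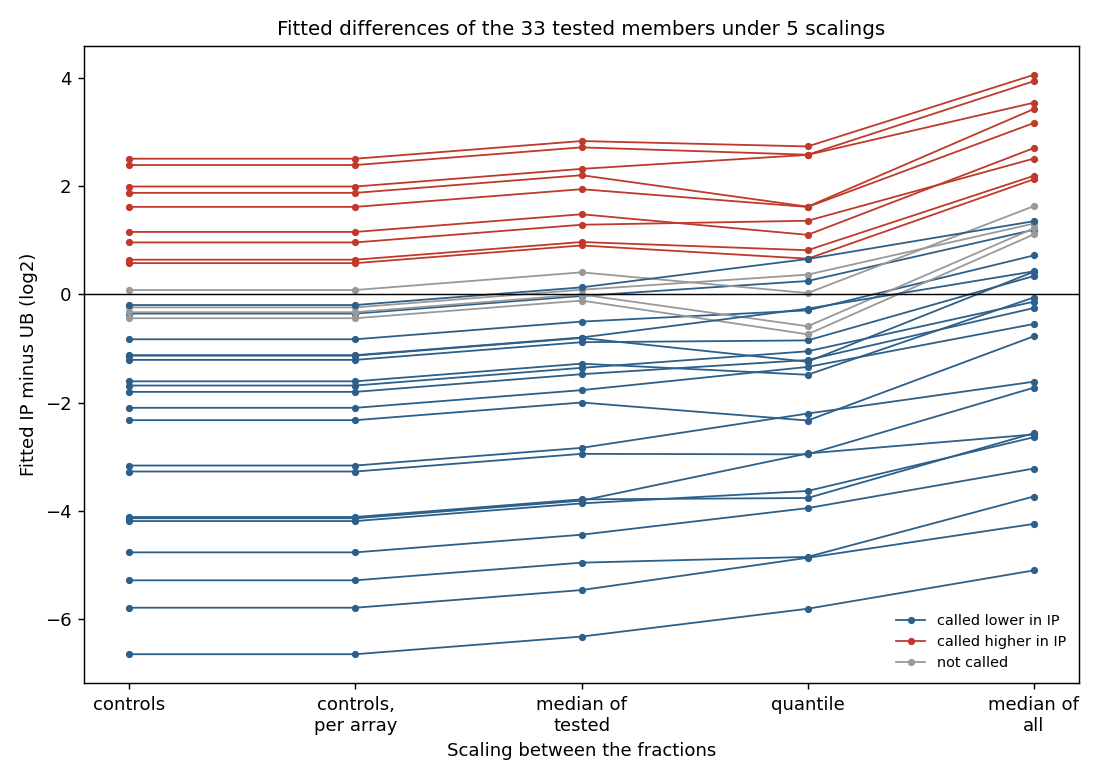
Fitted difference (IP minus UB, log2, vertical axis) of each of the 33 tested genes under 5 scalings between the fractions (horizontal axis), coloured by the call made with the control offset; for the 7 genes under 50 on all IP arrays the fitted value is not a fold. The 9 genes called higher stay above 0 throughout, while 6 of the 20 called lower rise above it under whole-table median scaling.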

How the data were processed

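The authors deposited log2 expression levels per probe set, made with GCRMA from Affymetrix arrays per the submitters' processing notes and normalized within groups per the series text, with no GCRMA version named in the labels. RNA (20 ng) had been amplified over 2 cycles and labelled with biotin, per the labels' protocols. The lowest level was 2.10 on each IP array and 2.05 on each UB array, so the fractions had been normalized apart.

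Following the series text, the fractions were scaled on 18 biotinylated control probe sets (mean IP minus UB 0.016 on the log2 scale, SD over controls 0.13), and this offset was subtracted from IP. Probe sets with at least 3 of 6 arrays at 50 or more (8960 of 17370) were fitted together with limma (version 3.58.1, R 4.3.3, variance trend, two-sided, Benjamini-Hochberg over all 8960); 6859 had an unadjusted p under 0.05. The fit was tested on simulated data. For a fraction with no array at 50, the fold is a bound against 50 that holds at this offset only.

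Fractions of a preparation share a replicate number in the labels, and their deviations from the group means correlated at 0.28 to 0.59 over tested probe sets; the main fit had no replicate block, and a fit with it was an alternative. Gene identifiers were matched to RefSeq (GRCm38.p6) for names, and all 60 matched. The members, the lists and the tests were chosen with earlier results of these data known. Every member was named, with array values for all tested cyclases and kinase genes and for the largest changes. Of the outside list, those named by rule were the 3 largest fitted changes in each direction and the HCN and Epac genes; Abcc5, Gnas and Gnai2 were added after their values were seen. Figures and tables were made with Python 3.11.15, pandas 2.3.3 and matplotlib 3.10.9.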

Additional observations from a re-analysis of the deposited data

How the results depend on the processing

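Of the 29 called genes, 10 kept their direction and their call under all 20 alternatives and 9 under the 18 or 19 run for them (they dropped out with tied probe sets or, for Pde5a, also under a higher filter). A further 7 lost the call under at least 1 alternative, and none of the 9 higher genes turned in those run for it. The median of the tested genes was -0.80 under median scaling over tested probe sets, -0.74 under quantile normalization, -0.50 with no filter, -0.83 with levels under 50 raised to 50, -0.33 with tied probe sets left out and 0.43 under whole-table median scaling. That last scaling rests on a median under 50 in IP. It gave 19 genes higher and 12 lower, 6631 and 1586 of all probe sets, and 13 and 3 of the outside list. It also gave 0.34 for Adcy2, 0.72 for Pde3b, 1.31 for Pde12, 1.20 for Pde4dip, 1.22 for Prkaca, 0.42 for Prkar1a, 1.11 for Prkar1b, 0.43 for Akap6, 1.35 for Akap8l, 0.33 for Hcn2, 0.66 for Npr2, 0.35 for Pkig, 1.34 for Gnas and 1.23 for Gnai2. Median scaling over tested probe sets gave 0.087 for Pde12, 0.13 for Akap8l, 0.12 for Gnas and 0.0080 for Gnai2, and quantile normalization 0.37 for Pde12, 0.25 for Pde4dip, 0.66 for Akap8l and 0.58 for Gnas. Without the filter, in which more genes are tested, 20 were higher and 34 lower, with 8557 and 5998 of all probe sets and 18 of the outside list higher. With tied probe sets left out, which drops genes by construction, 8 were lower, 2123 of all probe sets were lower, and 3 and 6 of the outside list were higher and lower. With a replicate block, 9 genes were higher and 20 lower, with 2911 and 3963 of all probe sets; it ended the call of Akap8l, made one for Prkar1b and, in the outside list, for Gnas and Gnai2, and changed no other call among the genes named above. Leaving out 1 array, or both arrays of a replicate, gave 8 to 9 genes higher and 19 to 22 lower, a median of -1.23 to -0.98, and 5 to 6 and 6 to 11 of the outside list. All probe sets ranged from 2053 to 3151 higher and from 3080 to 4239 lower. Prkacb ranged from -0.12 to 0.24, with -0.11 and -0.0045 where its sign also turned. The cause of these shifts was not tested. Genes under 50 cannot be told from background, which limits the 27 untested genes and every bound.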

Other observations

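Further genes outside the symbol families, chosen after their values were seen, bear on the same pathway. The inhibitor peptides of protein kinase A, which block its catalytic subunits, went both ways. Pkia had 10.72 throughout IP and 9.67 throughout UB and was 2.04-fold higher in IP (limma, adjusted p = 6.71e-07), beside Pkib, which was higher as well. Pkig stood at 10.25 ± 0.49 in IP and 11.44 ± 0.09 in UB (SD, n = 3) and was 2.30-fold lower (limma, adjusted p = 0.0116). The Pkig call was lost without both arrays of replicate 2 or of replicate 3 (limma, adjusted p = 0.134 and 0.109, range 0.000168 to 0.261 across the alternatives), and its value was 0.35 under whole-table median scaling.

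The membrane guanylyl cyclases that natriuretic peptides bind were not part of the symbol families. Npr1, the receptor of the peptide that Nppa encodes, had 4.69 on the IP arrays and the table minimum in UB, under 50 on all 6 arrays, and was not tested. Npr2 stood at 6.22 ± 0.47 in IP and 7.10 ± 0.12 in UB (SD, n = 3) and was 1.86-fold lower (limma, adjusted p = 0.0297). The Npr2 call was lost under quantile normalization and under median scaling over tested probe sets (limma, adjusted p = 0.707 and 0.104), without IP replicate 2, UB replicate 2 or UB replicate 3 (0.0731 to 0.107) and without both arrays of replicate 2 or 3 (0.193 and 0.0737), range 0.00492 to 0.707 across the alternatives. The nitric oxide synthase genes, whose product activates the soluble cyclase, were not tested. Nos1 and Nos2 were at or near the table minimum on all 6 arrays, and Nos3 stood at 5.26 ± 0.31 in IP and 4.17 ± 0.14 in UB.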
